A study of Mus musculus with 20 samples.

Results

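The genes described here are 35 mouse genes that copy DNA in S phase or prepare the cell for it. They were taken by symbol: every probe set annotated to exactly 1 of the 35 symbols counts as a member, which gave 82 of the 44200 probe sets measured, or 35 of 17944 genes. Transcripts were measured on 20 Affymetrix mouse genome arrays in 7 groups of pre-B cells, the B lymphocyte precursors that rearrange immunoglobulin light chain genes. Of these groups, 5 were pre-B lines transformed by the v-abl oncogene, all held for 48 hours in 3 uM STI571 (imatinib), an inhibitor of the v-abl kinase. Such treatment is known to stop the cycling of v-abl lines and to induce RAG, the enzyme that cuts antigen receptor genes so that they can be rejoined. The line groups were wild type (n = 3), RAG-2-deficient (n = 3, unable to cut), Artemis-deficient (n = 3, able to cut but lacking the nuclease that opens the hairpin ends), Artemis- and ATM-deficient (n = 2, each line on 2 arrays that were averaged, and lacking the kinase that signals breaks as well) and Artemis-deficient lines that also express dominant negative IkB, an inhibitor of NF-kB signalling (n = 3, the IkB-DN lines). Pre-B cells purified from bone marrow, untreated and without v-abl, came from Artemis-deficient (n = 2) and RAG-1-deficient (n = 2) mice, all carrying an IgH transgene; the sources used here do not say whether mice were pooled.

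DNA replication begins when ORC, CDC6 and CDT1 load the MCM2-7 ring, the replicative helicase, onto origins in G1. CDC45 and the GINS complex then join MCM to unwind DNA, DNA polymerase alpha with its primase starts each strand, and polymerases delta and epsilon extend it on the PCNA clamp, which the RFC complex loads. Most of these genes are known targets of E2F transcription factors, which are held back by RB proteins in resting cells, so their transcripts are widely used as a sign of cycling.

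The 250 bases before the transcription start were read from RefSeq promoters (build GRCm38.p6), which held an entry for 28 of the 35 genes. An E2F motif was searched on both strands as TTTCCCGC, TTTGGCGC, TTTCGCGC or TTTGCCGC; matches on opposite strands can overlap each other. It was present for 7 of the 28 genes (25%), Cdc6, Mcm5, Mcm6, Mcm7, Pola1, Rfc3 and Uhrf1, against 2.16% of all 27025 genes with a promoter entry. The motif CCAAT was present for 16 of 28 genes (57.1%, against 37.5% of all genes) and TTTGAA for 3 (10.7%, against 18.3%), both strands searched. These matches describe letters only. The promoters of 4 genes are printed, 5′ to 3′ on the gene's strand, with E2F matches in capitals: Mcm6 and Rfc3 because they were lower in Artemis-deficient lines, and Mcm5 and Rrm2 because they varied widely between lines of the same group. Mcm6 lies at chr1:128359706-128359955 (minus strand), Rfc3 at chr5:151651209-151651458 (minus strand), Mcm5 at chr8:75109259-75109508 (plus strand) and Rrm2 at chr12:24708004-24708253 (plus strand). Mcm6 has 3 matches, Mcm5 has 2 that overlap, Rfc3 has 1 that ends close to the start, and Rrm2 has none in this window.
Mcm6: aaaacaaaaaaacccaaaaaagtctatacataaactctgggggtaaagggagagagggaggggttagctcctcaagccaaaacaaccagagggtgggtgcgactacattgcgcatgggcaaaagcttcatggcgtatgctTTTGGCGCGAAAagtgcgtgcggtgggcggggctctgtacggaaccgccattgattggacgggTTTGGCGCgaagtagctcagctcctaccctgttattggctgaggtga
Rfc3: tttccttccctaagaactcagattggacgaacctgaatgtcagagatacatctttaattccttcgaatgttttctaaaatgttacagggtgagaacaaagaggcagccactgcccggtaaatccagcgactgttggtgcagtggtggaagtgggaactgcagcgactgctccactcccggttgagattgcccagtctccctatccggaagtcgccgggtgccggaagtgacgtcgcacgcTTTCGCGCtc
Mcm5: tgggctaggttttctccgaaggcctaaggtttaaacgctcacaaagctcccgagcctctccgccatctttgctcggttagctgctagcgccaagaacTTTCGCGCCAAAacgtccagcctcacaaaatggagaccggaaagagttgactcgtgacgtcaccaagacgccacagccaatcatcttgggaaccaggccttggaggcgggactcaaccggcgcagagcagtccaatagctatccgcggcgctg
Rrm2: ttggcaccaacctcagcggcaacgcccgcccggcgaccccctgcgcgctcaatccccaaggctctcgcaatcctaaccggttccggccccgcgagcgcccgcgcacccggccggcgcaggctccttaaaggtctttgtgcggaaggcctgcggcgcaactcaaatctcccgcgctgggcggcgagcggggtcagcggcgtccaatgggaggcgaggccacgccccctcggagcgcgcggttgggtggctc

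Levels are given as log2 of the array signal plus a small constant (6 in the lines, 11 in bone marrow), 1 probe set per gene. The 2 sets were processed apart and differed in median array signal (26.8 to 27.7 in lines, 46.9 to 47.8 in marrow). A probe set was kept if at least 2 samples reached the median of their own array, which left 31 of the 35 genes in the lines and all 35 in marrow. Of the 31, 22 were at or above the array median in all 14 line samples. The check of the labels on the targeted genes gave Atm, on 1 of its 2 probe sets, at 5.44 to 5.48 in the ATM-deficient lines against 6.42 to 7.65 in the other lines. Transcripts of Rag1 and Rag2 were measurable in the groups that lack the proteins (Rag1 at 12.39 to 12.71 in RAG-1-deficient marrow, Rag2 at 4.69 to 8.38 in RAG-2-deficient lines), and the sources used here do not give the deleted parts, so a probe outside them checks nothing. Correlations between replicates across probe sets were 0.902 to 0.948 in 4 groups of lines and 0.976 to 0.983 in the IkB-DN lines, close to the 0.982 and 0.984 between technical arrays of the same sample. The titles number the 3 IkB-DN samples as 3, 4 and 6, but the labels do not say that these numbers stand for different lines. If they do not, p values from fits that hold these samples are too small. The titles of the RAG-2-deficient lines carry the letters Bcl, that of wild type replicate 3 ATM and that of Artemis-deficient replicate 3 INV, all unexplained. Wild type replicate 3 was kept as wild type, as its source label says. The title of wild type replicate 1 ends in the letter b, as do those of the second technical arrays and of 1 IkB-DN sample. The labels do not explain that letter. The p values measure the spread between the samples given, which may in part be technical.

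Replication genes varied widely between the wild type and between the RAG-2-deficient lines, and wild type replicate 1 stood far above the rest. It was the highest of all 14 line samples for 24 of the 30 members measured in each of them, where it was the highest for 10.6% of all 9437 such genes. Relative to each gene's mean over the lines, the 30 members averaged 1.26 in wild type replicate 1, 0.29 in replicate 2 and -0.22 in replicate 3 on the log2 scale. The other 11 samples averaged between -0.45 and 0.20. The excess in wild type replicate 1 was present in every role, from an average of 0.74 over the 6 genes of the clamp and clamp loader to 2.47 over Rrm1 and Rrm2, the 2 genes of deoxynucleotide supply measured throughout. All genes together averaged 0.03 in that sample, on line arrays whose median signals were alike (26.8 to 27.7).

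**Figure D1:**
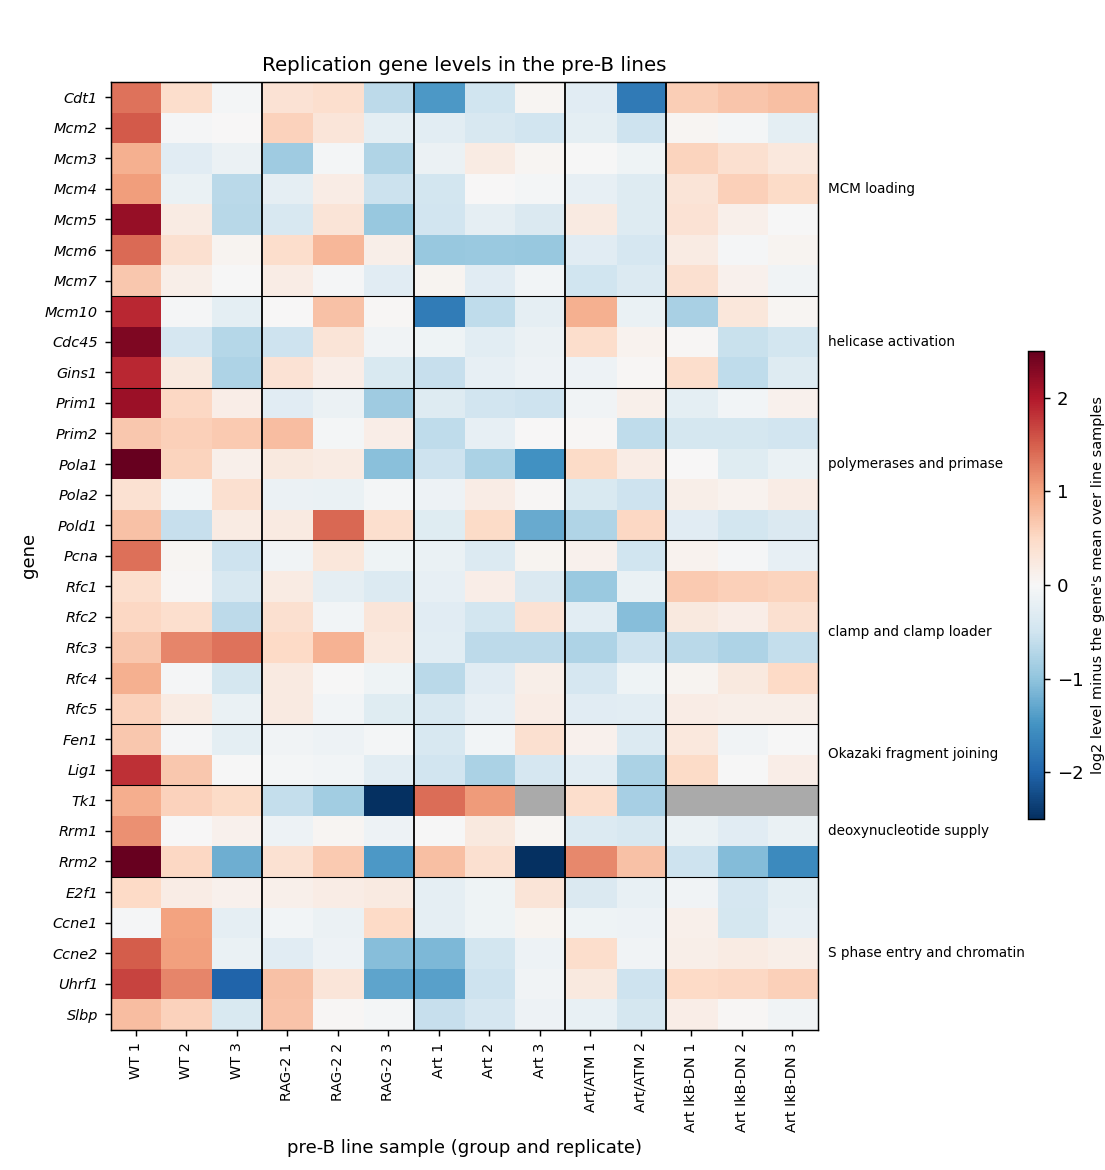
Each row is a replication gene kept in the lines, each column a line sample, and colour gives the log2 level minus the gene's mean over the samples that measured it, with empty cells in grey. The column of wild type replicate 1 is red for nearly every gene (average 1.26), while the row of Rfc3 divides the 6 samples of the first 2 groups from the other 8.

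The gene with the widest spread was Rrm2, the regulatory subunit of ribonucleotide reductase, which makes deoxynucleotides and is normally present in S phase. Wild type lines had levels of 10.53, 7.24 and 5.51, RAG-2-deficient lines of 7.11, 7.39 and 5.30 and Artemis-deficient lines of 7.49, 7.13 and 4.13. It was 7.94 and 7.47 in the Artemis- and ATM-deficient lines and 6.22, 5.65 and 5.13 in the IkB-DN lines. The ATM-deficient lines lay above every IkB-DN and RAG-2-deficient line; all other pairs of groups overlapped. Mcm5, an MCM ring subunit, was 9.03, 7.05 and 6.16 in wild type, 6.45, 7.16 and 5.90 in RAG-2-deficient, 6.37, 6.63 and 6.48 in Artemis-deficient, 7.07 and 6.53 in ATM-deficient and 7.21, 6.98 and 6.84 in IkB-DN lines, so 1 wild type line again stood alone. The median SD of the 30 members within a group was 0.69 in wild type, where it was 0.25 for all genes, 0.38 against 0.22 in RAG-2-deficient and 0.25 against 0.22 in Artemis-deficient lines. In the Artemis- and ATM-deficient lines it was 0.22 against 0.17, and in the IkB-DN lines it was 0.14 for both, so those cultures differed among themselves no more in replication genes than in others.

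The 4 members not kept in the lines lay low with 1 exception. Cdc6, which loads MCM, was 6.25 in wild type replicate 1 and 2.84 to 4.22 in the 12 other samples that measured it. Gins2, of the GINS complex, was 5.96 in that sample and at most 4.91 elsewhere on the same probe set. Pole, the catalytic subunit of polymerase epsilon, was 6.64 there and at most 4.97 elsewhere, and Tyms, thymidylate synthase, was 5.06 there and at most 4.01 elsewhere.

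Genes of G2 and mitosis, a list of 29 chosen by general knowledge of which 28 were kept, moved with the replication genes in some samples and apart from them in others. Wild type lines averaged 2.56, 0.69 and -1.19 for these genes, and RAG-2-deficient lines 0.18, 1.00 and -1.07. The averages were 0.16, -0.17 and -1.20 in the Artemis-deficient lines, 0.91 and 1.03 in the Artemis- and ATM-deficient lines and -0.64, -1.20 and -1.07 in the IkB-DN lines. The IkB-DN lines thus had replication genes near their overall mean (0.09, -0.05 and -0.03) with mitotic genes well below theirs. The ATM-deficient lines had the opposite order, with replication genes at -0.09 and -0.30 and mitotic genes above their mean. The number of cycling cells and the RNA per cell cannot be told apart in such bulk samples.

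**Figure D2:**
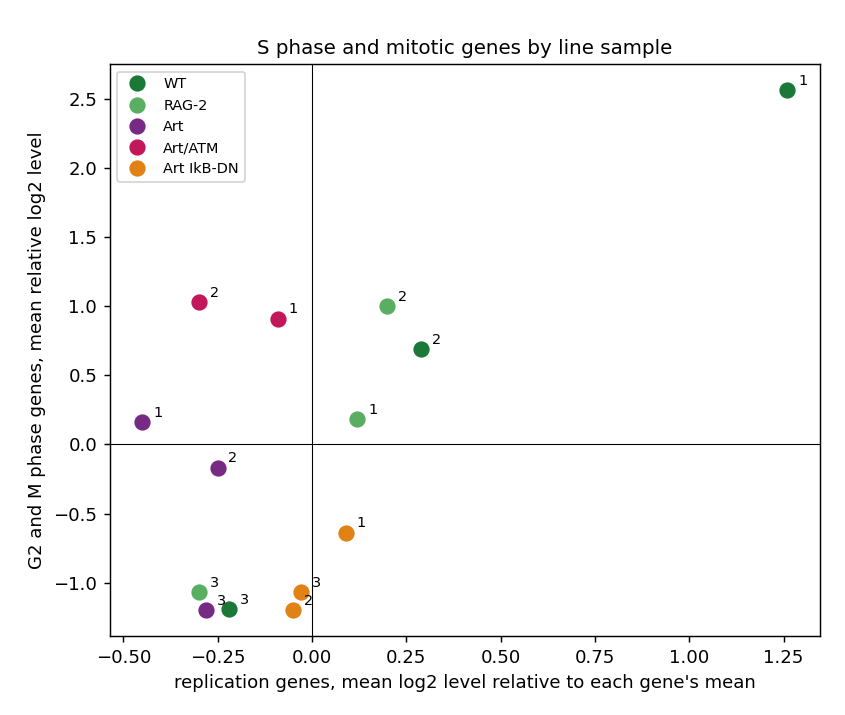
Each point is a line sample, numbered by replicate; the x axis is the mean relative log2 level of the 30 replication genes measured in every line sample and the y axis that of 28 G2 and M phase genes. Wild type replicate 1 lies alone at 1.26 and 2.56, the IkB-DN lines lie low on the y axis only, and the Artemis- and ATM-deficient lines lie high on the y axis only.

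Differences between the 5 groups of lines were tested with limma over all kept probe sets, and a gene was called at a Benjamini-Hochberg adjusted p below 0.05. A test for any difference among the groups called 3 of 30 members, Mcm6, Prim2 and Rfc3 (adjusted p = 0.0212, 0.036 and 0.001), where 9.68% of all genes were called, so the share of members was near that of other genes. This count was 6 without wild type replicate 3 and 1, Rfc3, without any 1 of the 3 IkB-DN samples. The call of Prim2 was lost without wild type replicate 1, 2 or 3, RAG-2-deficient replicate 3, Artemis-deficient replicate 2 or any of the IkB-DN samples (adjusted p = 0.0543 to 0.0986), and that of Mcm6 without any of the latter (0.0501 to 0.0571).

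**Figure D3:**
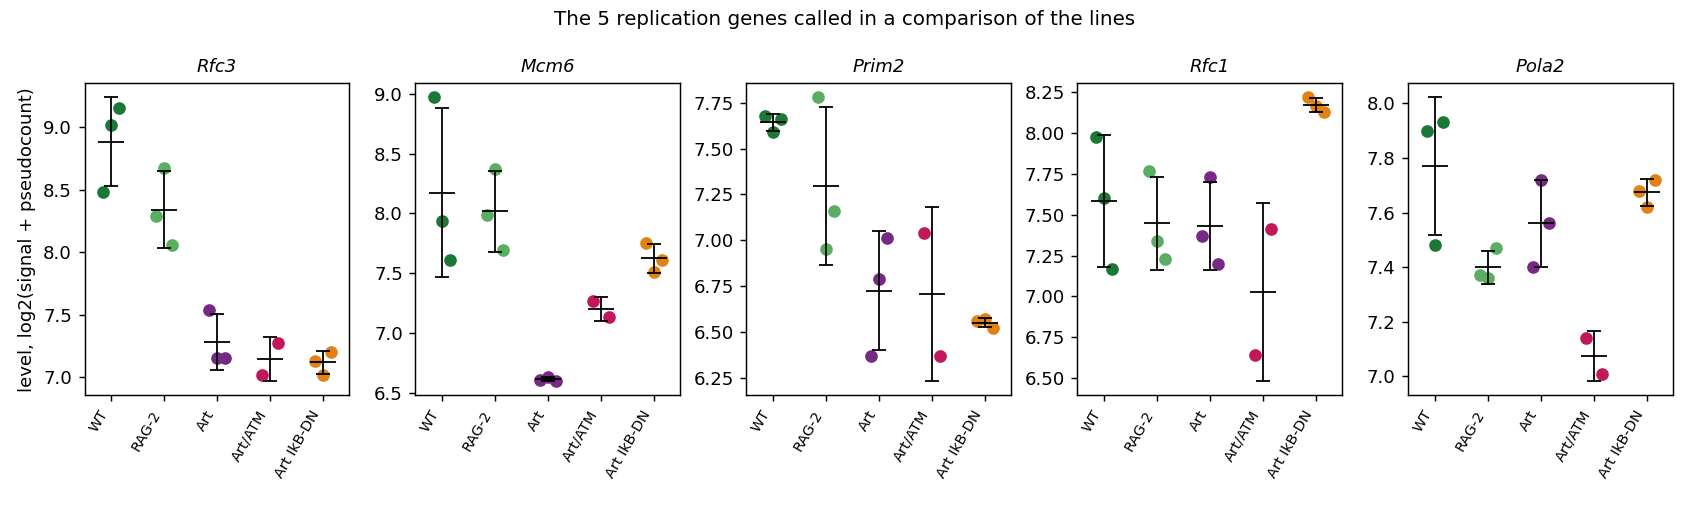
Points are line samples, horizontal marks the group means and bars the SD (n = 3, or 2 for Artemis- and ATM-deficient lines); the y axis is log2(signal + pseudocount), with a scale of its own in each panel. Rfc3 has no overlap between the first 2 groups and the other 3, with 8.06 as the lowest value of the former and 7.54 as the highest of the latter.

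Rfc3, a subunit of the clamp loader RFC, was lower in all 3 Artemis-deficient genotypes. Wild type lines had Rfc3 at 8.48, 9.02 and 9.15, and RAG-2-deficient lines at 8.29, 8.67 and 8.06. It was 7.54, 7.15 and 7.15 in the Artemis-deficient lines, 7.02 and 7.27 in the Artemis- and ATM-deficient lines and 7.13, 7.02 and 7.20 in the IkB-DN lines. All 6 samples with intact Artemis thus lay above all 8 without it, an order that no other member had among 31, and that 0.526% of 9877 genes had (0.415% had the opposite order). Wild type replicate 1, the highest sample for most replication genes, was the lowest wild type sample for Rfc3. Against RAG-2-deficient lines, Rfc3 fell by 1.06 ± 0.20 (SE, adjusted p = 0.029) in Artemis-deficient, by 1.19 ± 0.23 (0.0373) in ATM-deficient and by 1.22 ± 0.20 (0.0042) in IkB-DN lines. Against wild type lines it fell by 1.60 ± 0.20 in Artemis-deficient lines, to 0.329 of the wild type value (adjusted p = 0.0075), and by 1.74 ± 0.23 in ATM-deficient lines (0.0061). The second probe set of Rfc3 gave -1.23 ± 0.21 (adjusted p = 0.0161) between Artemis-deficient and RAG-2-deficient lines, and -1.80 ± 0.21 (0.00371) against wild type. Between the 3 Artemis-deficient genotypes Rfc3 differed by no more than 0.16, with 95% intervals reaching from -0.62 to 0.52. The comparisons share their control samples. The call against RAG-2-deficient lines was lost without RAG-2-deficient replicate 1 or 2 or Artemis-deficient replicate 2 or 3 (adjusted p = 0.0746 to 0.0930), and for the ATM-deficient lines without RAG-2-deficient replicate 1 or 2 or either ATM-deficient line (0.0864 to 0.154). Both calls were also lost when the fit held only the compared groups (0.123 and 0.148) or left out the IkB-DN lines (0.0966 and 0.123), and both calls against wild type when it held only the compared groups (0.130 and 0.172).

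Mcm6, a subunit of the MCM ring, was lower in Artemis-deficient lines than in either group with intact Artemis. It was 8.97, 7.94 and 7.61 in wild type lines, 7.99, 8.37 and 7.69 in RAG-2-deficient lines and 6.61, 6.63 and 6.60 in Artemis-deficient lines. It was 7.27 and 7.13 in the Artemis- and ATM-deficient lines and 7.75, 7.51 and 7.61 in the IkB-DN lines. The Artemis-deficient lines were the lowest of the 5 groups without overlap, and the IkB-DN lines reached the lower end of the wild type and RAG-2-deficient ranges. In Artemis-deficient lines Mcm6 fell by 1.4 ± 0.28 (SE) against RAG-2-deficient lines (adjusted p = 0.0364) and by 1.56 ± 0.28 against wild type (0.0354). On the other kept probe set the differences were -1.41 ± 0.33 (adjusted p = 0.0666) and -1.36 ± 0.33 (0.0994), of like size but not called. IkB-DN and Artemis-deficient lines differed by 1.01 ± 0.28 (adjusted p = 0.0835), not called. The call against RAG-2-deficient lines was lost without RAG-2-deficient replicate 1 or 2 or any Artemis-deficient line (0.0765 to 0.113), and the call against wild type was lost without any Artemis-deficient line (0.0713 to 0.0901) but not without any wild type line. Both were lost when the IkB-DN lines left the fit (0.108 and 0.127) or when only first technical arrays were used. The call against wild type was also lost when the fit held only those groups (0.313) or when probe sets were averaged.

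Mcm6 and Rfc3 were the 2 members called in each of these comparisons, out of 31 tested. The background was 1.10% of genes called between Artemis-deficient and RAG-2-deficient lines and 0.580% between Artemis-deficient and wild type lines; for Rfc3 alone, 1 of 31 was called between ATM-deficient and RAG-2-deficient lines (background 0.667%) and between ATM-deficient and wild type lines (1.04%), and 1 of 30 between IkB-DN and RAG-2-deficient lines (10.5%). Without wild type replicate 3, Lig1 and Ccne2 were called lower in Artemis-deficient lines too (4 members). Leaving out the same sample, or wild type replicate 2, made 2 members lower in ATM-deficient than in wild type lines, Rfc3 with Lig1 or with Pola2. Without RAG-2-deficient replicate 2, 3 members were called between IkB-DN and RAG-2-deficient lines, Mcm3, Prim2 and Rfc3.

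As a set, members lay lower in Artemis-deficient lines by an amount that depended on the comparison group. Against RAG-2-deficient lines the Artemis-deficient lines had 25 of 31 members lower, with a median difference of -0.18, where all genes had a median of 0.00 and 49.6% higher. The split fell to 20 of 31 without RAG-2-deficient replicate 1 or 2, and the median was -0.31 without RAG-2-deficient replicate 3 and -0.29 without Artemis-deficient replicate 3. Against wild type lines 30 of 31 were lower with a median of -0.57, which became 23 of 31 and -0.15 without wild type replicate 1, while the median was -0.91 without wild type replicate 3. The Artemis- and ATM-deficient lines had all 31 members below the wild type mean (median -0.62), which became 20 of 31 and -0.33 without wild type replicate 1. Without wild type replicate 3 the median was -0.94. Against RAG-2-deficient lines the ATM-deficient lines had 22 of 31 members lower and 9 higher (median -0.22). The IkB-DN lines, which also lack Artemis, showed no such shift from RAG-2-deficient lines, with 16 of 30 members higher and 14 lower (median 0.05).

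No member was called between wild type and RAG-2-deficient lines (background 0.746%), and 8 of 31 had an unadjusted p below 0.05. The background is a share at the adjusted threshold. No share of all genes at the unadjusted threshold was taken, so this count and those below cannot be read as an excess. Of the 31, 29 were higher in wild type with a median of 0.35, against 53.0% of all genes higher and a median of 0.02. Without wild type replicate 1 the split was 15 higher and 16 lower with a median of -0.04. The median was 0.63 without wild type replicate 3 and 0.21 without RAG-2-deficient replicate 3. Mcm2 changed from 0.30 to -0.22 in this way and Cdc45, which joins MCM in the active helicase, from 0.49 to -0.47. Prim1, the catalytic primase subunit, kept a difference of 0.79 of its 1.38 ± 0.39 (SE, adjusted p = 0.156), and Ccne2, a cyclin that drives G1 cells into S phase, 0.92 of its 1.28 ± 0.40 (0.191). Without wild type replicate 3, Ccne2 alone was called higher.

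**Figure D4:**
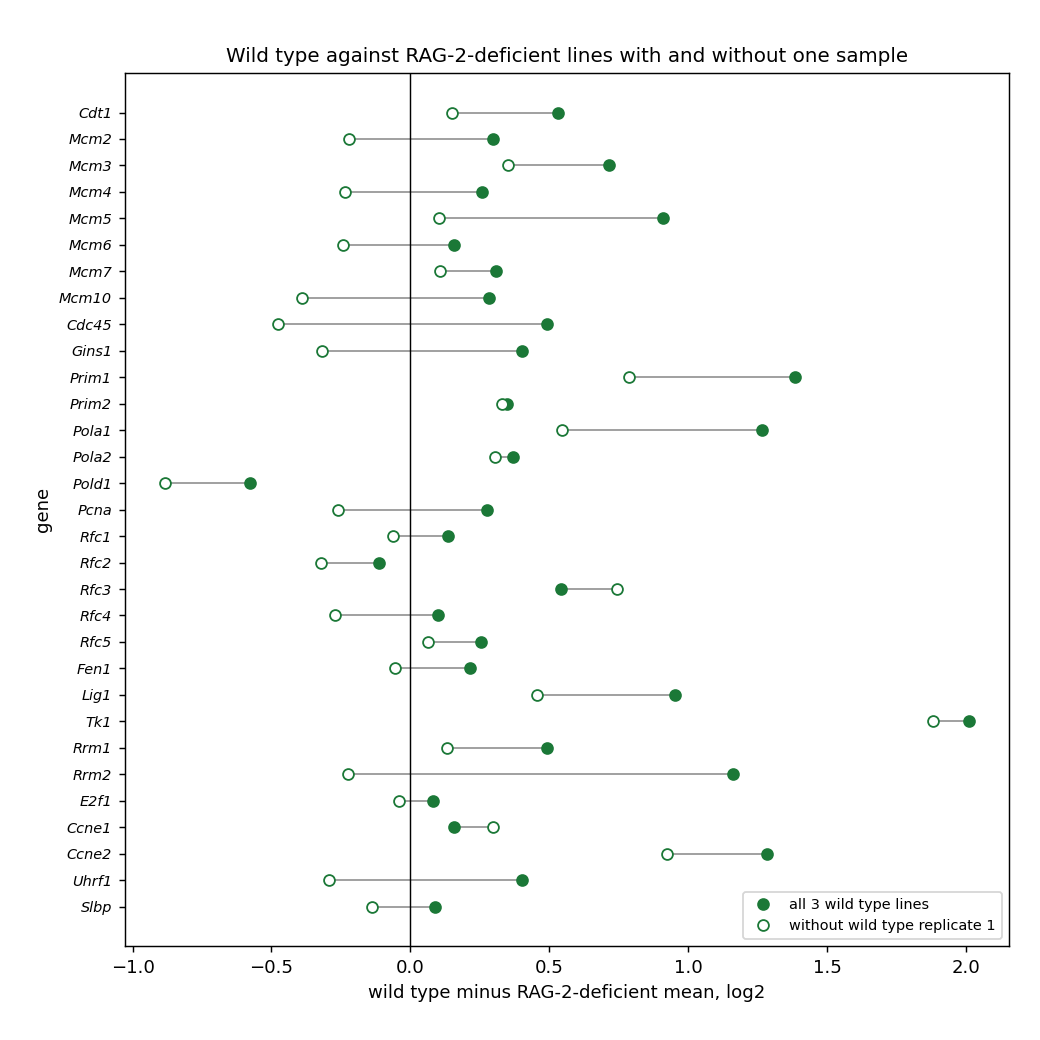
Filled points give the mean of the 3 wild type lines minus the mean of the 3 RAG-2-deficient lines for each of 31 replication genes (log2, x axis), and open points the same without wild type replicate 1. Filled points lie above 0 for 29 genes and open points for 15.

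Among the MCM loading genes, the licensing factor Cdt1 had the largest mean difference between IkB-DN and Artemis-deficient lines. Cdt1 was 8.83, 7.92 and 7.44 in wild type, 7.85, 7.91 and 6.83 in RAG-2-deficient and 6.05, 6.98 and 7.53 in Artemis-deficient lines. It was 7.19 and 5.72 in ATM-deficient and 8.09, 8.17 and 8.23 in IkB-DN lines, which lay above every Artemis-deficient and ATM-deficient line. The difference between IkB-DN and Artemis-deficient lines was 1.31 ± 0.48 (SE, adjusted p = 0.168) and was not called. All 7 MCM loading genes kept were higher in IkB-DN than in Artemis-deficient lines (median 0.52) and higher in IkB-DN than in ATM-deficient lines (median 0.46), none of them called on the probe set that represents the gene. For Cdt1 the latter difference, given as ATM-deficient minus IkB-DN, was -1.71 ± 0.53 (SE, adjusted p = 0.0751), and its second kept probe set was called (-1.83 ± 0.44, 0.0315), as was Cdt1 itself when its probe sets were averaged or when the fit held these groups alone. Mcm7, another ring subunit, was 10.20, 9.91 and 9.72 in IkB-DN, 9.86, 9.51 and 9.73 in Artemis-deficient, 9.31 and 9.45 in ATM-deficient, 9.99, 9.78 and 9.52 in RAG-2-deficient and 10.48, 9.95 and 9.79 in wild type lines. The ATM-deficient lines were the lowest of all 14 for Mcm7, without a call, and the other 4 groups overlapped.

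Of the helicase activation genes, Cdc45 was 7.26, 4.5 and 4.21 in wild type, 4.40, 5.25 and 4.84 in RAG-2-deficient, 4.82, 4.66 and 4.78 in Artemis-deficient, 5.36 and 5.01 in ATM-deficient and 4.94, 4.37 and 4.47 in IkB-DN lines. Wild type replicate 1 stood alone at the top, and the ATM-deficient lines lay above all Artemis-deficient and IkB-DN lines. Neither order held on a second kept probe set of Cdc45. There wild type replicate 1 was 5.17, below Artemis-deficient replicate 3 at 5.27. The ATM-deficient lines were 4.7 and 3.9 on it, and overlapped with the Artemis-deficient and IkB-DN lines. None of the 3 genes tested in this role was called. Mcm10, a factor that binds the activated helicase, ranged from 2.96 to 6.60 and Gins1, of the GINS complex, from 3.99 to 6.66, each with its highest value in wild type replicate 1.

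The polymerase alpha and primase genes gave calls for both accessory subunits. Prim2, the large primase subunit, was 7.68, 7.59 and 7.66 in wild type, 7.78, 6.95 and 7.16 in RAG-2-deficient, 6.37, 6.79 and 7.01 in Artemis-deficient, 7.04 and 6.37 in ATM-deficient and 6.56, 6.57 and 6.52 in IkB-DN lines. The wild type lines lay above all Artemis-deficient genotypes, yet no pairwise difference of this probe set was called. A second probe set of Prim2 was called lower in IkB-DN than in RAG-2-deficient lines (-0.81 ± 0.23 SE, adjusted p = 0.0468).

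Pola2, the B subunit of polymerase alpha, was 7.14 and 7.01 in the ATM-deficient lines and 7.68, 7.62 and 7.72 in the IkB-DN lines. It was 7.90, 7.48 and 7.93 in wild type, 7.37, 7.36 and 7.47 in RAG-2-deficient and 7.40, 7.72 and 7.56 in Artemis-deficient lines, so the ATM-deficient lines were the lowest of all. Pola2 was lower in ATM-deficient than in IkB-DN lines by -0.60 ± 0.15 (SE, adjusted p = 0.0395). A second probe set gave -0.59 ± 0.24 (0.159). The call was lost without any 1 of the 5 samples compared (0.0958 to 0.190).

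Pola1, the catalytic subunit of polymerase alpha, had the largest difference of any member between Artemis-deficient and wild type lines and was not called. It was 7.20, 5.25 and 4.82 in wild type and 4.17, 3.89 and 3.18 in Artemis-deficient lines, a difference of -2.01 ± 0.55 (SE, adjusted p = 0.137). It was 4.93, 4.89 and 3.65 in RAG-2-deficient, 5.16 and 4.87 in ATM-deficient and 4.69, 4.38 and 4.52 in IkB-DN lines, so the Artemis-deficient lines overlapped with the RAG-2-deficient lines only. Pold1, the catalytic subunit of polymerase delta, was 8.56, 7.25 and 8.03 in wild type, 8.05, 9.27 and 8.25 in RAG-2-deficient, 7.52, 8.31 and 6.58 in Artemis-deficient, 7.07 and 8.35 in ATM-deficient and 7.55, 7.37 and 7.47 in IkB-DN lines, with overlap between most groups and no call.

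In the clamp and clamp loader role, Rfc1, the large RFC subunit, was highest in the IkB-DN lines. It was 8.22, 8.17 and 8.13 there, 7.98, 7.60 and 7.17 in wild type, 7.77, 7.34 and 7.23 in RAG-2-deficient, 7.37, 7.73 and 7.20 in Artemis-deficient and 6.64 and 7.41 in ATM-deficient lines, so the IkB-DN lines lay above all 11 others. Rfc1 was lower in ATM-deficient than in IkB-DN lines by -1.15 ± 0.27 (SE, adjusted p = 0.0301), and its other 2 probe sets were called too, both at -1.27. The call was lost without ATM-deficient replicate 1 (-0.76, adjusted p = 0.23) or any 1 of the IkB-DN samples (0.0688 to 0.0909). Rfc1 and Pola2 were the 2 of 30 members called between ATM-deficient and IkB-DN lines, where 7.0% of all genes were called. Of 11 neutrophil and monocyte markers 5 were kept in the lines; the summed signal of the list was 651 to 796 in the IkB-DN lines, 910 and 250 where ATM was lacking and 126 to 413 in the other 3 groups, against 26500 to 37900 for B lineage markers. Lyz2, Itgam and Elane were called above the RAG-2-deficient level in IkB-DN lines; the part of such cells or genes in these results was not tested.

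Pcna, the sliding clamp itself, was 11.24, 9.92 and 9.34 in wild type, 9.77, 10.14 and 9.76 in RAG-2-deficient, 9.70, 9.53 and 9.93 in Artemis-deficient, 9.98 and 9.36 in ATM-deficient and 9.95, 9.84 and 9.67 in IkB-DN lines. Apart from wild type replicate 1 its values stayed within 9.34 to 10.14. Rfc2, Rfc4 and Rfc5, the other RFC subunits listed, were called in no comparison, with ranges of 6.38 to 7.95, 6.55 to 8.11 and 6.61 to 7.59. The second lowest spread of any member over the lines was that of Pola2, whose range was 0.92, while Rrm2 ranged over 6.39.

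Okazaki fragments are trimmed by Fen1 and sealed by Lig1. Fen1 was 8.58, 7.88 and 7.66 in wild type, 7.82, 7.79 and 7.87 in RAG-2-deficient, 7.51, 7.85 and 8.30 in Artemis-deficient, 8.01 and 7.57 in ATM-deficient and 8.17, 7.83 and 7.89 in IkB-DN lines, with no separation of groups. Lig1 was 7.89, 6.74 and 6.05 in wild type and 5.59, 5.28 and 5.65 in Artemis-deficient lines, and neither gene was called.

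In deoxynucleotide supply, Tk1, thymidine kinase, followed another order than most members. It was 6.29, 5.96 and 5.85 in wild type, 4.78, 4.5 and 2.79 in RAG-2-deficient, 6.78 and 6.45 in 2 Artemis-deficient and 5.81 and 4.55 in ATM-deficient lines, and its cells were empty in Artemis-deficient replicate 3 and all 3 IkB-DN samples. The measured Artemis-deficient and wild type values lay above all RAG-2-deficient ones. The differences from RAG-2-deficient lines were 2.59 ± 0.57 (SE, adjusted p = 0.0773) in Artemis-deficient lines, with replicate 3 dropped by the fit, and 2.01 ± 0.51 (0.142) in wild type lines, the largest of any member in both comparisons and not called. With a pseudocount of 32 Tk1 was called higher in Artemis-deficient lines (1.49, adjusted p = 0.0336), and over the alternatives this difference ranged from 1.49 to 3.35. Empty cells were mostly at low signal in this table, so those means may leave out low values. Rrm1, the large reductase subunit, was 9.54, 8.41 and 8.5 in wild type, 8.26, 8.44 and 8.27 in RAG-2-deficient, 8.39, 8.65 and 8.45 in Artemis-deficient, 8.06 and 8.0 in ATM-deficient and 8.23, 8.12 and 8.23 in IkB-DN lines. The 2 ATM-deficient lines were the lowest of the 14, without a call. Rrm2 had the largest difference between ATM-deficient and Artemis-deficient lines (1.45 ± 1.27 SE, adjusted p = 0.787) and between ATM-deficient and IkB-DN lines (2.04 ± 1.27, 0.366), neither called. When the fit held only the ATM-deficient and IkB-DN lines, Rrm2 was called higher in the ATM-deficient lines (adjusted p = 0.0083).

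No member was called between ATM-deficient and Artemis-deficient lines (background 0.327%; 15 higher, 16 lower, median -0.02, 2 with an unadjusted p below 0.05) or between IkB-DN and Artemis-deficient lines (background 2.36%; 22 of 30 higher, median 0.34, 3 with an unadjusted p below 0.05).

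Of the genes of S phase entry and chromatin, Slbp, which binds histone mRNA, was 10.01, 9.81 and 8.85 in wild type, 9.95, 9.26 and 9.19 in RAG-2-deficient, 8.66, 8.81 and 9.12 in Artemis-deficient, 9.05 and 8.80 in ATM-deficient and 9.40, 9.27 and 9.15 in IkB-DN lines. All Artemis-deficient lines lay below all RAG-2-deficient lines, by a mean of -0.60 ± 0.28 (SE, adjusted p = 0.367) that was not called. Uhrf1, which maintains DNA methylation on new strands, was 8.70, 8.23 and 4.99 in wild type and ranged from 5.65 to 7.73 in the other lines. E2f1 and Ccne1 were called nowhere, with ranges of 4.62 to 5.53 and 5.56 to 7.01.

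In bone marrow, 33 of 35 members were lower in Artemis-deficient than in RAG-1-deficient pre-B cells, with a median difference of -0.24, and none was called (background 2.59%; 6 had an unadjusted p below 0.05). All genes had a median of 0.00 with 49.8% higher. Ccne2 differed most: it was 8.97 and 8.56 in Artemis-deficient and 9.82 and 9.23 in RAG-1-deficient marrow, without overlap, a difference of -0.76 ± 0.25 (SE, 95% interval -1.33 to -0.18, adjusted p = 0.179). Mcm2 was 10.18 and 9.90 against 10.63 and 10.48, a difference of -0.51 ± 0.17 (0.188), and Cdc45 was 8.32 and 8.29 against 8.99 and 8.69, a difference of -0.53 ± 0.19 (0.215). Pcna was 12.68 and 12.69 against 12.95 and 12.68, with overlap. RAG-1-deficient replicate 1 was the highest of the 4 samples for 31 of 35 members, where it was the highest for 22.1% of 9917 genes. Without that sample 30 of 35 members were lower with a median of -0.10, and without RAG-1-deficient replicate 2 the median was -0.38. The 28 mitotic genes kept were all lower in Artemis-deficient marrow too (median -0.32, 0 called and 5 with an unadjusted p below 0.05).

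**Figure D5:**
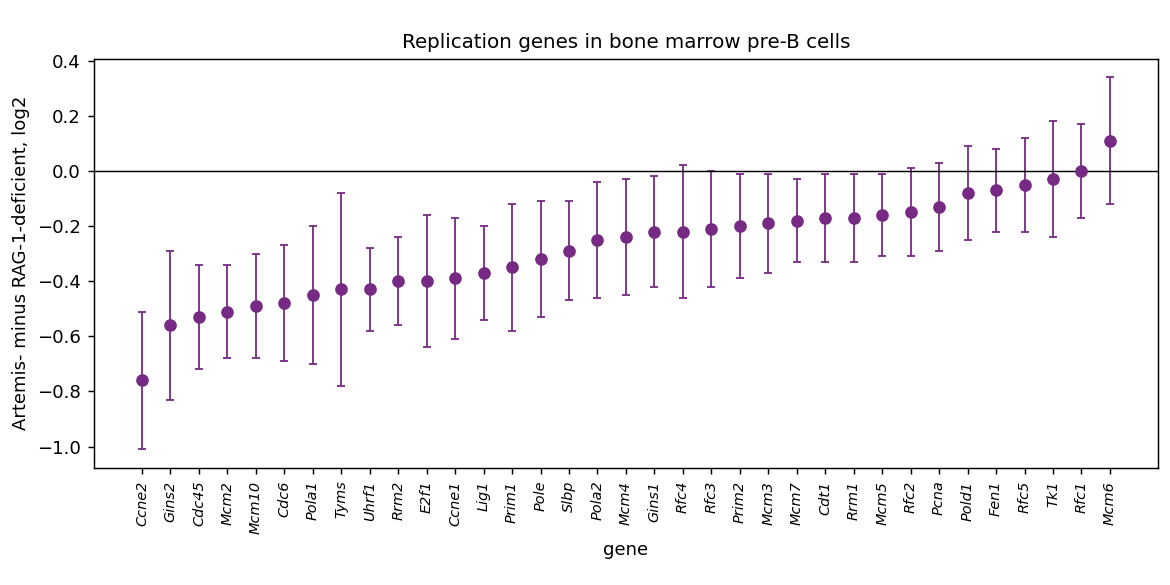
Points give the log2 difference of each of 35 replication genes between Artemis-deficient and RAG-1-deficient bone marrow pre-B cells, with bars for the standard error, ordered by size. They run from -0.76 for Ccne2 to 0.11 for Mcm6, and most lie between -0.5 and 0.

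Markers of other cells moved with this comparison. The summed signal of 11 neutrophil and monocyte markers was 72100 and 67900 in Artemis-deficient and 39000 and 54500 in RAG-1-deficient marrow, with 11 of 11 higher and Lyz2 called. That of B lineage markers was 25600 and 18800 against 31200 and 35600, with 8 of 8 lower and Vpreb1 called. The neutrophil and monocyte sum thus exceeded the B lineage sum in every marrow sample, though the labels name them pre-B cells. Sums over different probe sets do not measure shares of cells. Dendritic cell markers summed to 2630 and 3770 against 595 and 1070, with 2 of 3 tested called, Itgax and Siglech. No marker of T and NK, dendritic or erythroid cells was kept in the lines. In marrow, T and NK cell markers summed to 3860 and 3800 against 1530 and 1930, and erythroid markers to 2030 and 2730 against 3730 and 3530. The part of other cells in the difference of the replication genes was not tested.

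Of the 2 members called in Artemis-deficient lines, neither was called in marrow. Rfc3 was 8.64 and 8.81 in Artemis-deficient and 8.69 and 9.17 in RAG-1-deficient marrow (-0.21 ± 0.21 SE, 95% interval -0.71 to 0.29). Mcm6 was 11.60 and 11.36 against 11.69 and 11.04 (0.11 ± 0.23, -0.43 to 0.66); its other 2 probe sets gave -0.44 and -0.48, not called. The difference between the effect in lines and that in marrow was -0.85 ± 0.32 (adjusted p = 0.263) for Rfc3, -1.52 ± 0.44 (0.149) for Mcm6 and 2.62 ± 0.77 (0.174) for Tk1. None of the 31 members was called in that test (background 0.376%; 3 had an unadjusted p below 0.05), so a difference between lines and marrow was not shown. Of the 31 probe sets present in both, 25 ranked higher within the array in all 4 marrow samples than in all 14 line samples and 0 ranked lower, where 15.1% and 14.3% of 8820 genes did. A common scale factor on an array does not change ranks within it. Cell source, drug treatment, v-abl and any other step of array processing cannot be told apart in that ranking.

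Of 38 further replication genes tested in the lines, Pold3 and Pold4, both accessory subunits of polymerase delta, were called for any difference (adjusted p = 0.0392 and 0.00767), where 9.68% of all genes were, and Pold4 was higher in Artemis-deficient than in wild type lines (0.89 ± 0.16 SE, adjusted p = 0.0359), against the direction of most members. Between IkB-DN and RAG-2-deficient lines, with 10.5% of all genes called, Orc3 of the origin recognition complex was higher (0.45 ± 0.12, 0.039) and Dbf4, the activator of the CDC7 kinase that fires origins, lower (-1.11 ± 0.31, 0.0421). Rpa2, which coats single-stranded DNA, was lower in ATM-deficient than in IkB-DN lines (-0.91 ± 0.21, 0.0279), a comparison that called 7.0% of all genes. Of 40 tested in marrow, 0 were called and 4 had an unadjusted p below 0.05.

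Among 24 regulators of G1, RB and E2F tested in the lines, the D-type cyclin gene Ccnd1 was called most often. Its mean was 3.30 ± 0.12 (SD, n = 3) without RAG-2, and it was higher by 2.12 ± 0.26 (SE) in wild type, 1.83 ± 0.26 in Artemis-deficient, 2.24 ± 0.29 in ATM-deficient and 1.51 ± 0.26 in IkB-DN lines (adjusted p = 0.00239 to 0.00519), comparisons that share the control. A level of 3.30 lies below that of a probe set at the 25th percentile of signals, where the size of a difference depends on the pseudocount and the RAG-2-deficient level may be only a bound. The shares of all genes called in these comparisons were 0.746%, 1.10%, 0.667% and 10.5%. In marrow, where 2.59% of all genes were called, Ccnd1 was higher in Artemis-deficient cells by 2.04 ± 0.33 (0.0311) and Ccnd2 by 0.86 ± 0.15 (0.0388). Markers of other cells moved with that comparison, and their part in these differences was not tested. Cdkn1b, the CDK inhibitor p27, was lower in wild type than in RAG-2-deficient lines (-0.95 ± 0.14, 0.011), where 0.746% of all genes were called. In ATM-deficient compared with IkB-DN lines, with 7.0% of all genes called, E2f2, Ccnd3 and the CDK inhibitor Cdkn2c were higher by 1.88 ± 0.45, 1.38 ± 0.38 and 2.07 ± 0.49 (0.0304, 0.0494 and 0.0296). The 28 mitotic genes were all higher in the same comparison with a median of 2.09, 0 called and 16 with an unadjusted p below 0.05.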

How the data were processed

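Arrays were read with GeneChip Operating Software 1.2.0.037, per the submitters' processing notes; background correction and scaling are not named in those notes. Values deposited by the authors are signals on a log10 scale, a base inferred from the values because no label names it, and 14.7% of cells were empty. They were returned to linear signals, the unit the design had assumed, raised by the 25th percentile of the set (6 in lines, 11 in marrow) and taken to log2. Technical arrays of a line were averaged. Kept probe sets numbered 21921 in lines and 19520 in marrow. limma 3.58.1 in R 4.3.3 (lmFit, eBayes with an intensity trend) was fitted to all 5 line groups together and to marrow separately, with Benjamini-Hochberg adjustment over kept probe sets and at least 2 values per group; fits were tested on simulated data. The Artemis effect in lines minus that in marrow came from 1 fit over all 7 groups. A gene was represented by its kept probe set with the highest mean. Gene symbols came from GEO's platform annotation: 34294 probe sets name 1 gene, 916 several and 8990 none. Arrays have no read depth; their number limits the precision. The members, role groups and lists were chosen with earlier results of these data known. Values in every sample are given for members called in any test, the member with the largest change in each comparison and the member with the highest mean in each role; others were chosen after their values were seen. Alternatives were a pseudocount of 1 or 32, no filter, a filter on mean level, quantile normalization, fits of only the compared groups or without IkB-DN lines, no trend, first technical arrays only, the mean of probe sets and each sample left out. Figures were drawn with matplotlib.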

Additional observations from a re-analysis of the deposited data

How the results depend on the processing

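A recomputed count of called members was taken as unchanged within 1.5 times of the main count, or if both were 0. This held for 148 of 189 counts, in part because comparisons without a call mostly stayed at 0. First technical arrays alone could not change the marrow count, as marrow had no second arrays. None of the 321 recomputed differences and tests of named members reversed. The tests of Mcm6, Prim2 and Rfc3 for any difference among the line groups have no direction, so they could not reverse. The named members were those called or with the largest difference. Rfc3 stayed called for any difference among the line groups under all 22 alternatives (adjusted p = 0.00056 to 0.0051) and between IkB-DN and RAG-2-deficient lines under all 15. When each fit held the compared groups alone, the members called were 1 (Artemis-deficient against RAG-2-deficient), 0 (ATM-deficient against RAG-2-deficient), 3 (IkB-DN against RAG-2-deficient), 0 (Artemis-deficient against wild type; Rfc3 at an adjusted p of 0.130), 2 (IkB-DN against Artemis-deficient), 0 (ATM-deficient against wild type) and 6 (ATM-deficient against IkB-DN). Without the IkB-DN lines they were 0, 0 and 1 for Artemis-deficient and ATM-deficient against RAG-2-deficient and Artemis-deficient against wild type. First technical arrays gave 1 and 1 for Artemis-deficient against RAG-2-deficient and against wild type, the mean of probe sets 2 for IkB-DN against RAG-2-deficient and 1 for Artemis-deficient against wild type, and no filter 1 for ATM-deficient against IkB-DN. Leaving out 1 sample gave 1 to 6 members for any difference, 0 to 2 for Artemis-deficient, 0 to 1 for wild type and for ATM-deficient, and 1 to 3 for IkB-DN, each against RAG-2-deficient; 1 to 4 for Artemis-deficient and 1 to 2 for ATM-deficient against wild type; and 0 to 1 for ATM-deficient against IkB-DN. Over all genes the count of calls moved as well: Artemis-deficient against RAG-2-deficient lines had 108, and 50 with only those groups. Fits without some groups have fewer samples; for the other settings the cause was not tested. Low signals limit the 4 members not kept in the lines and the 9 kept ones that lay under the array median in some line samples, such as Tk1, Pola1 and Mcm10. No paired analysis was possible because the replicate numbers were given in accession order and pair no samples.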
